A study of Ambystoma mexicanum with 12 samples.

Results

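The 47 genes described here encode ion channels, ion pumps and proteins that store, release or buffer calcium in limb tissue of the axolotl (Ambystoma mexicanum), a salamander that regrows amputated limbs. They were chosen by name from a table of the study that lists 1114 genes changed in blastemas, taking every gene whose name starts with RYR, ATP1, ATP2, CASQ, CACN, JPH, TRDN, SLN, PVALB, STAC, KCN, SCN, CLCN, CHRN, TRPM, TMEM38 or CAMK. The 47 genes carry 36 different names and were counted among 99088 genes, of which 65472 had a count in some library. That table was built in part on the contrast of blastemas with juvenile limbs in these libraries. Every value of that contrast below is therefore a description, and no test is read from it.

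Total RNA was sequenced from 12 libraries, 5 of blastemas, 2 of aged limbs and 5 of juvenile limbs. The blastemas (replicates 2, 3, 5, 6 and 8) were the regrowing tissue taken 10 days after amputation from axolotls of 8 months. The aged limbs (replicates 1 and 2) came from axolotls of 8 years, which formed no blastema after amputation, and the juvenile limbs (replicates 2, 3, 5, 6 and 8) were limb tissue of axolotls of 8 months. The study counts 5 juvenile animals for limbs and blastemas, but that a replicate number marks 1 animal is not stated. All animals came from 1 captive colony founded with wild axolotls of Lake Xochimilco, and the labels name no transgene and no drug. Which limb was taken is not settled, since the results of the study name a forelimb, its methods the inferior limbs and the labels the posterior leg. Whole tissue was sequenced, so fewer cells of a type and less RNA per cell cannot be told apart.

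In skeletal muscle, a nerve impulse opens acetylcholine receptors, the depolarization spreads along the membrane through voltage-gated sodium channels, and the voltage sensor in the transverse tubule opens ryanodine receptors in the sarcoplasmic reticulum. Calcium then leaves the store, where calsequestrin holds it, is buffered by parvalbumin in fast fibres, and is pumped back by calcium ATPases. Other families in the list serve epithelia and immune or blood cells, among them the epithelial sodium channel and the calcium-activated potassium channel KCNN4. These roles are known from mammals unless another animal is named. The names are those of the study's annotation, and ATP13A4.5 and ATP13A4.6, P-type ATPases outside the sodium and calcium pump families, entered only because their names start with the same letters.

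The libraries held between 12975883 and 20663627 counts on genes. Levels are given as CPM, the counts of a gene per 1000000 counts of the library, after scaling with the TMM method of edgeR, and they compare libraries for 1 gene, not genes with each other, since gene lengths were not used. A group of libraries without a count could still hold up to 3 counts by chance, which is 0.0421 CPM over the blastemas, 0.0789 CPM over the aged limbs and 0.0340 CPM over the juvenile limbs. These limits and the intervals below take in counting error alone. Fold differences of genes at 0 or with 1 to 3 counts come from counts summed over each group, divided by the scaled library sizes, and other fold changes are edgeR's fitted log2 values with their standard error (SE). A list of 43 muscle genes, mostly of the sarcomere with desmin (DES) and muscle creatine kinase (CKM) and none of them among the 47, summed to between 5.37 and 104 CPM in the blastemas, to 30607 CPM in aged limb 1 and 3896 CPM in aged limb 2, and to between 13604 and 64124 CPM in the juvenile limbs. All 43 muscle list genes had counts in the aged and in the juvenile limbs, whereas MYH2.4, MYH8, NEB, TCAP.1, TCAP.3 and TNNC1.1 had none in any blastema. The 7 blastema markers summed to between 825 and 2328 CPM in blastemas, between 40.2 and 77.2 CPM in aged limbs and between 70.2 and 139 CPM in juvenile limbs, and the 10 epidermal keratin and plakin genes to between 2413 and 5387 CPM in blastemas, 11783 and 11811 CPM in aged limbs and 7609 and 18953 CPM in juvenile limbs. The 5 nerve genes summed to between 20.2 and 242 CPM in blastemas, with the highest value in blastema 8, to 160 and 198 CPM in aged limbs and to between 165 and 553 CPM in juvenile limbs.

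Across the 47 genes, levels were lower in blastemas than in juvenile limbs with hardly an exception. In 44 genes every blastema lay below every juvenile limb, against 7.21% of all genes tested. For all 5 replicate numbers, 46 genes were lower in the blastema than in the juvenile limb with the same number, which was not counted over all genes. Of the 47 genes, 39 passed the filter on low counts, 37 were called lower and 0 higher in blastemas, where 5.60% of the 19961 genes tested were called lower and 1.86% higher. The genes had been listed for this contrast, so these counts carry no weight as a result. The median fitted log2 fold change of the 39 genes was -8.23, against -0.02 over all genes tested. With groups without a count set to the limit of 3 counts, the median log2 ratio of the summed counts was -7.11 over the 39 genes and -6.61 over all 47. The remaining low levels in blastemas were not alike: 15 genes had no count in any blastema, 8 had 1 to 3 counts in all, and 9 were detected in each of the 5 blastemas with between 30 and 3119 counts. Detection of this kind was not counted over all genes either.

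**Figure D1:**
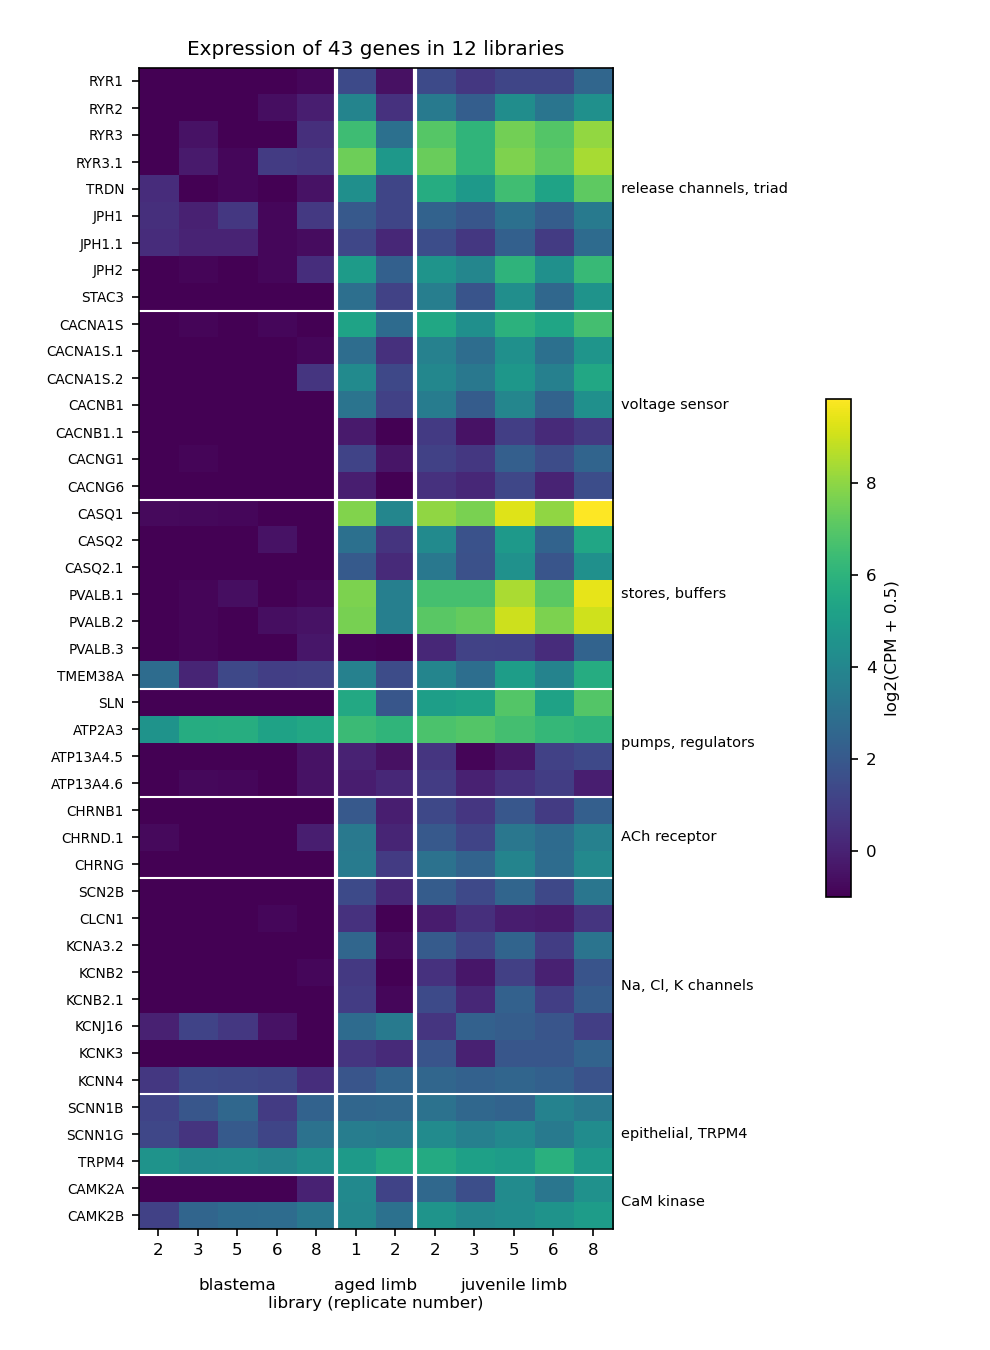
Level of 43 of the 47 genes (rows, grouped by role) in each of the 12 libraries (columns), as log2(CPM + 0.5) on a colour scale. The 5 blastemas are dark for most genes, ATP2A3 and TRPM4 stay bright in all libraries, and aged limb 2 is darker than aged limb 1 for most genes.

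The ryanodine receptors, the calcium release channels of the sarcoplasmic reticulum, were nearly absent from blastemas. RYR3 (AMEX60DD012123) was at 0, 0.230, 0, 0 and 0.892 CPM in blastemas 2, 3, 5, 6 and 8, at 86.8 and 7.48 CPM in aged limbs 1 and 2, and at 125, 68.1, 181, 121 and 271 CPM in juvenile limbs 2, 3, 5, 6 and 8. All blastemas lay below all limbs, and aged limb 2 lay below every juvenile limb while aged limb 1 lay among them. The log2 fold change of blastemas over juvenile limbs was -9.32 ± 0.91 (SE). RYR1 (AMEX60DD024403), the main release channel of mammalian skeletal muscle, had a count only in blastema 8 (0.0743 CPM), stood at 2.18 and 0.193 CPM in the aged limbs and at 2.17, 1.201, 1.92, 1.91 and 5.53 CPM in the juvenile limbs, in the same order of replicates. With 1 count over the blastemas, it was 174-fold lower there than in juvenile limbs (exact 95% counting limits 30.9 and 6899). RYR2 (AMEX60DD024404), the cardiac form in mammals, and RYR3.1 (AMEX60DD024402) averaged 0.119 ± 0.194 and 0.600 ± 0.635 CPM in blastemas, and 12.8 ± 7.19 and 183 ± 100 CPM in juvenile limbs (SD, n = 5 each). Frog skeletal muscle is known to carry an alpha and a beta release channel, which correspond to the mammalian RYR1 and RYR3.

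The identifiers of RYR3.1, RYR1 and RYR2 follow each other directly in the annotation, while RYR3 lies elsewhere. In the RefSeq annotation of another axolotl assembly, UKY_AmexF1_1, RYR1, RYR2 and RYR3 are single genes that are not neighbours. Counts of RYR1 ran at between 0.00718 and 0.0178 times those of RYR3.1 over the 7 limbs, and counts of RYR2 at between 0.0359 and 0.0901 times. Whether the 3 identifiers are separate genes or stretches of 1 gene cannot be told from the counts, so their names are not used to rank the forms.

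Triadin, the junctophilins and STAC3 build the contact between the tubule and the store. TRDN (AMEX60DD034784), which ties calsequestrin to the release channel, was at 0.783, 0, 0.0788, 0 and 0.223 CPM in the blastemas, at 20.7 and 1.93 CPM in the aged limbs and at 51.6, 27.3, 90.4, 38.3 and 140 CPM in the juvenile limbs. The 3 groups did not overlap, with blastemas lowest, and the log2 fold change of blastemas over juvenile limbs was -8.52 ± 0.89 (SE). STAC3 (AMEX60DD029751), which mammalian muscle needs to couple the voltage sensor to the release channel, had no count in any blastema. It was at 7.33 and 1.68 CPM in the aged limbs and at 11.8, 2.96, 19.6, 5.61 and 23.4 CPM in the juvenile limbs, which makes it at least 281-fold lower in blastemas than in juvenile limbs.

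JPH1 and JPH2, which hold the tubule and store membranes together, differed from each other in how much was left in blastemas. JPH2 (AMEX60DD027615) was at 0, 0.0460, 0, 0.0757 and 0.817 CPM in blastemas, at 29.9 and 4.45 CPM in aged limbs and at 23.7, 15.1, 65.6, 21.4 and 77.6 CPM in juvenile limbs, a log2 fold change of -7.72 ± 0.91 (SE). JPH1 (AMEX60DD039925) was at 0.880, 0.506, 1.18, 0.0757 and 1.26 CPM in blastemas, at 3.51 and 1.93 CPM in aged limbs and at 4.79, 3.23, 7.56, 4.01 and 10.4 CPM in juvenile limbs, a log2 fold change of -2.95 ± 0.57 (SE). JPH1 was thus detected in every blastema, and JPH2 in 3 of the 5, mostly in blastema 8. The second JPH1 identifier, JPH1.1 (AMEX60DD039926), had a log2 fold change of -2.89 ± 0.68 (SE), and its counts ran at between 0.333 and 0.605 times those of JPH1 in the limbs.

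The voltage sensor was represented by 7 identifiers for 4 subunits, and 3 of the 7 had no count in any blastema. CACNA1S (AMEX60DD008599), the pore-forming subunit of the L-type calcium channel of skeletal muscle, was at 0, 0.0460, 0, 0.0757 and 0 CPM in blastemas, at 38.0 and 6.44 CPM in aged limbs and at 43.2, 20.2, 62.1, 41.2 and 95.6 CPM in juvenile limbs. With 2 counts over the blastemas, it was 1768-fold lower there than in juvenile limbs (limits 489 and 14602). All blastemas lay below all limbs. CACNA1S.1 and CACNA1S.2, with nearby identifiers, had 1 and 15 counts over the blastemas, all of them in blastema 8. CACNA1S is a single gene in RefSeq, and the counts of its copies here ran at between 0.140 and 0.338 times and between 0.305 and 0.479 times those of CACNA1S in the limbs. They may therefore be stretches of 1 gene and are not counted as independent of it.

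CACNB1 (AMEX60DD010278), the beta subunit that carries the channel to the membrane, was without a count in the blastemas, at 8.44 and 1.61 CPM in the aged limbs and at 11.1, 3.97, 15.1, 4.99 and 21.4 CPM in the juvenile limbs. It was at least 255-fold lower in blastemas than in juvenile limbs. CACNG1 (AMEX60DD017369), the gamma subunit of skeletal muscle, had 1 count, in blastema 3, and was at 1.73 and 0.258 CPM in aged limbs and at 1.63, 1.201, 4.40, 2.404 and 5.08 CPM in juvenile limbs. That is 195-fold lower in blastemas than in juvenile limbs (limits 34.6 and 7729). CACNB1.1 and CACNG6, another gamma subunit, were low in the limbs too, with 84 and 109 counts over the 5 juvenile limbs, and the limit of 3 counts puts CACNB1.1 at least 22.6-fold lower in blastemas and CACNG6 at least 29.4-fold.

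The calsequestrins and parvalbumins were nearly without counts in blastemas. CASQ1 (AMEX60DD016918), the calcium store protein of fast muscle, was at 0.0978, 0.0920, 0.0788, 0 and 0 CPM in blastemas, at 219 and 15.0 CPM in aged limbs and at 260, 202, 624, 259 and 906 CPM in juvenile limbs. Its counts summed to 4 in blastemas and to 36989 in juvenile limbs, a log2 fold change of -12.81 ± 0.79 (SE). CASQ2 (AMEX60DD046741), the form of cardiac and slow muscle, had its 3 blastema counts in blastema 6, was at 7.51 and 1.03 CPM in aged limbs and at 17.6, 2.77, 28.2, 4.87 and 41.8 CPM in juvenile limbs, and was 419-fold lower in blastemas than in juvenile limbs (limits 143 and 2035). CASQ2 ranged 15.1-fold among the juvenile limbs and CASQ1 4.48-fold. Neither overlapped between blastemas and limbs. CASQ2.1, whose counts ran at between 0.485 and 0.967 times those of CASQ2 in the limbs, had no count in blastemas and was at least 257-fold lower there than in juvenile limbs.

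PVALB.1 (AMEX60DD025873), a parvalbumin that buffers calcium in the cytosol, was at 0, 0.0460, 0.158, 0 and 0.0743 CPM in blastemas, at 206 and 12.4 CPM in aged limbs and at 100.3, 97.4, 354, 135 and 688 CPM in juvenile limbs, a log2 fold change of -12.08 ± 0.95 (SE). PVALB.2 followed it at -11.70 ± 0.81 (SE). The third parvalbumin, PVALB.3 (AMEX60DD046862), was far lower in the limbs. It was at 0, 0.0460, 0, 0 and 0.297 CPM in blastemas, at 0.0444 and 0 CPM in aged limbs and at 0.642, 1.71, 1.65, 0.801 and 4.95 CPM in juvenile limbs, a log2 fold change of -4.65 ± 0.99 (SE) for blastemas over juvenile limbs. Both aged limbs lay within the range of the blastemas, with 1 count in the aged limbs and 5 in the blastemas.

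TMEM38A (AMEX60DD014024), the channel that lets potassium balance the charge of released calcium, was the store gene with most left in blastemas. It was at 6.55, 0.598, 2.05, 1.51 and 1.56 CPM in blastemas, at 13.2 and 2.38 CPM in aged limbs and at 14.8, 6.93, 31.9, 13.7 and 52.3 CPM in juvenile limbs. Blastema 2 was above aged limb 2 and just below the lowest juvenile limb. The log2 fold change of blastemas over juvenile limbs was -3.32 ± 0.69 (SE).

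Among pumps and their regulators, SLN (AMEX60DD049438), the small inhibitor of the muscle calcium pump, had no count in any blastema. It was at 46.1 and 3.22 CPM in the aged limbs and at 32.6, 37.7, 122, 37.4 and 120.5 CPM in the juvenile limbs, at least 1544-fold lower in blastemas.

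ATP2A3 (AMEX60DD054139), the calcium pump of many cell types outside muscle, behaved otherwise. It was at 23.2, 50.8, 53.7, 37.4 and 44.7 CPM in blastemas, at 83.2 and 67.5 CPM in aged limbs and at 107, 123, 95.6, 73.04 and 65.8 CPM in juvenile limbs. The blastemas lay below all limbs by a small margin, and the log2 fold change was -1.15 ± 0.26 (SE). ATP13A4.5 (AMEX60DD003242) had 3 counts, all in blastema 8, against 0.533 and 0.193 CPM in aged limbs and 1.09, 0.0462, 0.275, 1.66 and 2.12 CPM in juvenile limbs. Its blastemas and juvenile limbs overlapped, and by summed counts it was 23.5-fold lower in blastemas (limits 7.76 and 116). ATP13A4.6 had 6 counts in blastemas and 84 in juvenile limbs.

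**Figure D2:**
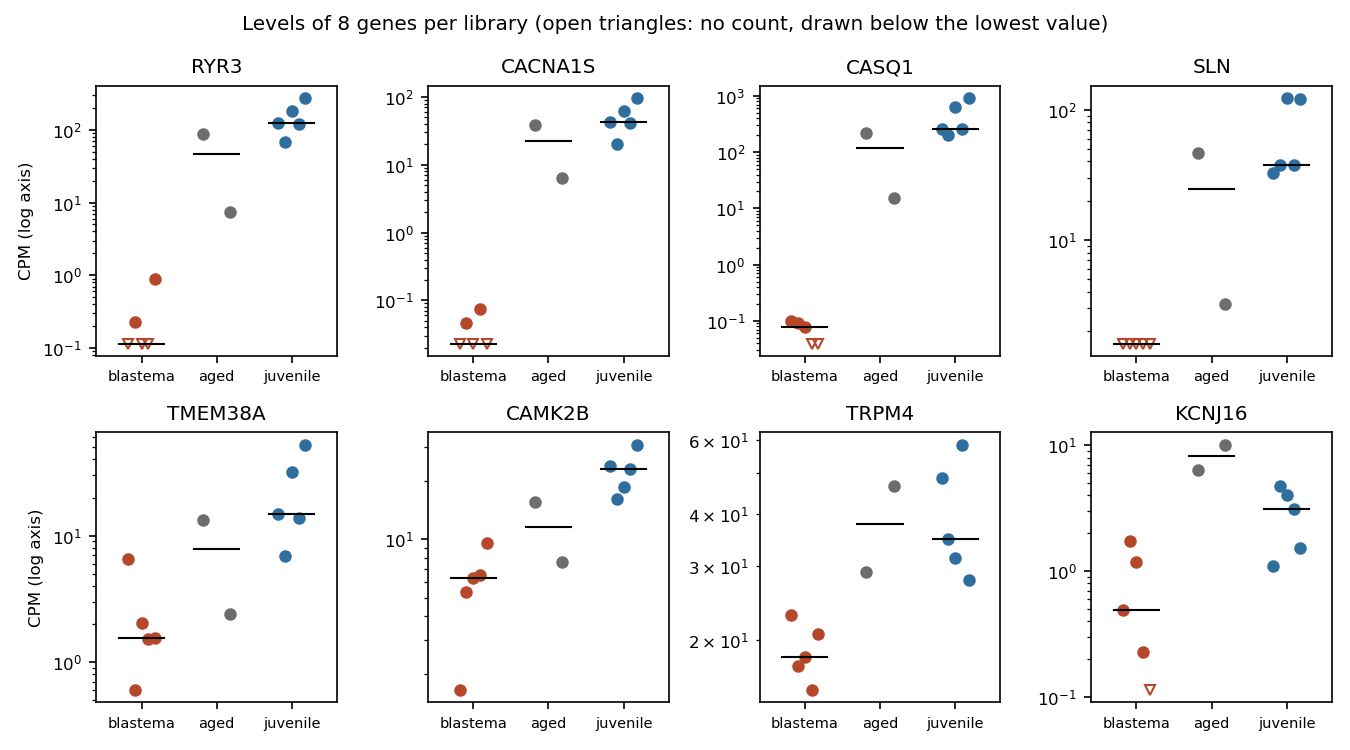
Level in CPM on a log axis of 8 genes in the 5 blastemas, 2 aged limbs and 5 juvenile limbs. Each filled point is 1 library, open triangles are libraries without a count drawn below the lowest value, and bars are group medians with those libraries at the drawn height. RYR3, CACNA1S, CASQ1 and SLN lie far below the limbs in blastemas, whereas TRPM4 stays between 15.21 and 23.0 CPM there and KCNJ16 is highest in the 2 aged limbs.

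The muscle acetylcholine receptor was represented by 3 subunits. CHRNG (AMEX60DD003074), the gamma subunit that mammals use in fetal and denervated muscle, had no count in blastemas, stood at 11.0 and 1.35 CPM in aged limbs and at 7.85, 4.90, 14.3, 6.53 and 16.4 CPM in juvenile limbs, and was at least 225-fold lower in blastemas. CHRNB1 (AMEX60DD012755), the beta subunit, had none either, stood at 3.51 and 0.451 CPM in aged limbs and at 2.07, 1.15, 3.30, 1.36 and 4.38 CPM in juvenile limbs, and was at least 55.3-fold lower. CHRND.1, the delta subunit, had 1 count in blastema 2 and 6 in blastema 8, with a log2 fold change of -5.96 ± 0.94 (SE). For each subunit all blastemas lay below all limbs.

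Of the 9 genes for sodium, chloride and potassium channels, 5 had no count in any blastema. SCN2B, an accessory subunit of voltage-gated sodium channels, was at least 101-fold lower in blastemas than in juvenile limbs. Among potassium channels KCNA3.2 was at least 93.0-fold lower, KCNB2.1 at least 57.1-fold and the leak channel KCNK3 at least 66.6-fold. CLCN1 (AMEX60DD026317), the chloride channel that steadies the resting muscle membrane, was at 0, 0, 0, 0.0757 and 0 CPM in blastemas, at 0.978 and 0 CPM in aged limbs and at 0.395, 0.878, 0.412, 0.370 and 1.09 CPM in juvenile limbs. With 1 count in blastemas it was 45.3-fold lower there than in juvenile limbs (limits 7.80 and 1820). KCNB2, a voltage-gated potassium channel like KCNB2.1 and KCNA3.2, also had 1 count, in blastema 8, and was 83.3-fold lower (limits 14.6 and 3321).

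KCNN4 and KCNJ16 stood apart from the other potassium channels. KCNN4 (AMEX60DD017904), the calcium-activated potassium channel of red cells, lymphocytes and epithelia, was at 1.17, 2.21, 2.05, 1.89 and 0.817 CPM in blastemas, at 3.16 and 5.16 CPM in aged limbs and at 5.38, 4.62, 5.36, 4.44 and 2.90 CPM in juvenile limbs, a log2 fold change of -1.47 ± 0.35 (SE). KCNJ16 (AMEX60DD031220), an inward rectifier subunit known from kidney and other epithelia, was at 0.489, 1.75, 1.18, 0.227 and 0 CPM in blastemas, at 6.36 and 10.1 CPM in aged limbs and at 1.09, 4.71, 4.06, 3.14 and 1.54 CPM in juvenile limbs. Its blastemas overlapped the juvenile limbs but not the aged limbs, and the log2 fold change of blastemas over juvenile limbs was -1.95 ± 0.78 (SE), not past the threshold of the calls.

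SCNN1G and SCNN1B had log2 fold changes closer to zero than the median of -8.23 over the 39 genes tested. This was not general to their group, since 1 of the 4 genes grouped as epithelial and other channels had no count in any blastema. Nor was it particular to that group. By summed counts, SCNN1G was 4.85-fold and SCNN1B 2.44-fold lower in blastemas than in juvenile limbs. CAMK2B and ATP2A3, from other groups, were 3.72-fold and 2.18-fold lower. SCNN1G (AMEX60DD020926), a subunit of the epithelial sodium channel, was at 1.96, 1.06, 3.70, 1.89 and 8.03 CPM in blastemas, at 11.4 and 10.6 CPM in aged limbs and at 18.02, 12.6, 16.9, 10.23 and 18.5 CPM in juvenile limbs, a log2 fold change of -2.20 ± 0.47 (SE). SCNN1B (AMEX60DD020929), its partner subunit, was at 1.76, 3.17, 5.67, 1.36 and 4.76 CPM in blastemas, at 5.42 and 5.86 CPM in aged limbs and at 8.00, 5.54, 4.88, 13.6 and 9.85 CPM in juvenile limbs. SCNN1B overlapped between blastemas and juvenile limbs, was lower in the blastema for 4 of the 5 replicate numbers, and at -1.33 ± 0.43 (SE) on the log2 scale was the other tested gene that was not called.

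TRPM4 (AMEX60DD016306), a cation channel opened by calcium, was at 23.0, 17.4, 18.2, 15.21 and 20.7 CPM in blastemas, at 29.0 and 46.5 CPM in aged limbs and at 48.8, 34.8, 31.3, 58.4 and 27.8 CPM in juvenile limbs. Its log2 fold change of -1.10 ± 0.24 (SE) was the smallest of the genes tested, although no blastema reached a limb.

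The calcium/calmodulin-dependent kinases differed as well. CAMK2A (AMEX60DD030139) was at 0, 0, 0, 0 and 0.520 CPM in blastemas, at 17.0 and 1.74 CPM in aged limbs and at 5.87, 2.49, 18.1, 9.12 and 21.7 CPM in juvenile limbs, a log2 fold change of -6.73 ± 1.01 (SE). All 7 of its blastema counts came from blastema 8. CAMK2B (AMEX60DD001307) was at 1.66, 5.33, 6.301, 6.51 and 9.51 CPM in blastemas, at 15.6 and 7.67 CPM in aged limbs and at 24.0, 16.2, 18.6, 23.2 and 30.8 CPM in juvenile limbs, a log2 fold change of -1.95 ± 0.36 (SE). Blastema 8 thus exceeded aged limb 2 for CAMK2B, while no blastema reached a juvenile limb.

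The few counts left in blastemas were spread unevenly over the libraries. The 38 genes that were not detected in all 5 blastemas had 230 counts there in total, 15 in blastema 2, 61 in blastema 3, 28 in blastema 5, 31 in blastema 6 and 95 in blastema 8. Blastema 8 held 41.3% of these counts and showed 17 of the 38 genes, against 4, 11, 7 and 8 genes in blastemas 2, 3, 5 and 6. The 43 muscle list genes were also highest in blastema 8, at 104 CPM, against 17.1, 7.68, 10.24 and 5.37 CPM in blastemas 2, 3, 5 and 6, and the 5 nerve genes stood at 242 CPM there against at most 55.9 CPM in the others. The part of these tissues in the residual counts was not tested. Without blastema 8, 42 of the 47 genes passed the filter and 40 were called lower in blastemas, where 6.28% of the 20831 genes tested were.

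The comparison of aged with juvenile limbs asks how the same tissue differs between animals of 8 years and of 8 months. The aged limbs had no part in choosing the 47 genes, although the juvenile limbs had. All 47 genes passed the filter and 46 had a log2 fold change below zero, but edgeR's quasi-likelihood test called none of them once p was adjusted (Benjamini-Hochberg) over the 24316 genes tested. The shares called over all genes were 0.0494% lower and 0.0535% higher. At an unadjusted p under 0.05 there were 6 of the 47 genes and 1818 of all genes. DESeq2 called 2 of the 47, both lower, and edgeR called 10 when low counts were not filtered. Of these 10, KCNJ16 was called higher in aged limbs, at a log2 fold change of 1.55. DESeq2 called 0.923% of the 25688 genes to which it gave an adjusted p lower and 0.265% higher, and the unfiltered fit called 1.07% of 62161 genes lower and 0.370% higher. The median log2 fold change of the 47 genes was -1.21, against -0.04 over all genes. Both aged limbs lay below every juvenile limb for TRDN, CACNG6, PVALB.3 and CAMK2B, which are 4 of 47 where 6.33% of all genes did so, and both lay above for KCNJ16 alone, where 6.08% did.

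Most of this came from 1 of the 2 aged animals. Aged limb 2 was below every juvenile limb for 37 genes, within their range for 9 and above it for 1, whereas aged limb 1 was below for 5, within for 41 and above for 1. These placings of a single aged limb were not counted over all genes. The split was not confined to the 47 genes, since the summed muscle list, given below, showed it too. Without aged limb 2 the median log2 fold change was -0.53 and 37 of the 47 genes stayed below zero, and without aged limb 1 it was -3.16. The muscle list genes moved along, with 30607 CPM in aged limb 1 and 3896 CPM in aged limb 2, below the lowest juvenile limb at 13604 CPM. The part of muscle content in these differences was not tested. The aged group has 2 animals, which limits what the test can call.

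The values farthest from zero below and above were those of PVALB.3 and TRDN and of KCNJ16, none of them past the threshold. PVALB.3 was at a log2 value of -5.90 ± 1.37 (SE, adjusted p = 0.269 by edgeR, 0.000212 to 0.789 over the alternatives), with 1 count in aged limb 1 and 0 in aged limb 2 against between 13 and 77 counts in each juvenile limb. TRDN had -2.60 ± 0.96 (SE, adjusted p = 0.582 by edgeR, 1.97e-06 to 0.922 over the alternatives). DESeq2 called both, with adjusted p of 0.0169 for PVALB.3 and 0.0143 for TRDN. KCNJ16 was the only gene of the 47 above zero, at 1.52 ± 0.53 (SE, adjusted p = 0.577 by edgeR, 0.0411 to 0.922 over the alternatives), and at the same end TRPM4 followed with -0.08 ± 0.36 (SE, adjusted p = 0.985 by edgeR). TRPM4 had no stable sign, with a log2 fold change of 0.23 without aged limb 1 and 0.12 without juvenile limb 6.

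By role, the median was lowest for stores and buffers and closest to zero for the acetylcholine receptor. Stores and buffers ran from -5.90 to -1.32 with a median of -1.93, the voltage sensor from -2.43 to -1.13 with a median of -1.51, and release channels with their junction proteins from -2.60 to -0.72 with a median of -1.21. The 3 receptor subunits lay between -0.67 and -0.27. SCNN1B was at -0.56, SCNN1G at -0.45 and TRPM4 at -0.08. Among single genes, CASQ1 was at -1.93 ± 1.00 (SE), RYR3 at -1.69 ± 0.86 (SE), CACNA1S at -1.22 ± 0.73 (SE) and SLN at -1.48 ± 0.95 (SE). None of these passed the threshold, which does not show that the limbs were alike.

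The spread among limbs was then set against the muscle list. The 43 genes of that list come from the same table as the 47, which was built in part on the same 5 juvenile limbs. The counts below therefore describe genes that were listed together, and their excess over all genes is not independent evidence. Over the 7 limbs, the log2 level of 32 genes had a Pearson r of 0.90 or more with the summed level of the muscle list, where 2.31% of all 24316 genes did. The median r was 0.94 over the 47 genes and 0.04 over all genes. In the exact two-sided permutation test over all pairings, 36 of the 47 genes had a positive r at an unadjusted p under 0.05, against 7.78% of all genes. After Benjamini-Hochberg adjustment over all genes none passed by Pearson's r or by Spearman's rho. For r, the smallest p the test can give, 0.000198, came to an adjusted 0.0564. For rho, a value of 1.00 had a permutation p of 0.000397, which came to an adjusted 0.104. With the mean log2 level of the list in place of its sum, 3 of the 47 genes passed, where 0.391% of all genes did.

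The order of limbs was shared by most of the 47 genes. RYR3.1, RYR2, CACNA1S.2 and CHRNG had r of 0.99 with the list (permutation p = 0.000198, adjusted p = 0.0564). Their rho was 1.00 (permutation p = 0.000397, adjusted p = 0.104). JPH2 had r of 0.98 and KCNB2 of 0.96, both with rho of 1.00 and the same p-values for r and for rho. Juvenile limb 8 was the highest juvenile limb for 36 genes and juvenile limb 3 the lowest for 30, and these 2 limbs were also highest and lowest for the muscle list. The highest and lowest limb were not counted over all genes. Without aged limb 2 and juvenile limb 3, the limbs farthest from the median of the list, 16 genes kept an r of 0.90 or more. Such an r is easier to reach by chance with fewer limbs, and its share over all genes was not counted. Others fell below it, among them CHRND.1 at 0.63, RYR1 at 0.74, CACNG1 at 0.76, and TRDN and PVALB.2 at 0.78. Over the 5 juvenile limbs alone, r was 0.86 for CHRND.1, 0.83 for RYR1, 0.88 for CACNG1, 0.99 for TRDN and 0.81 for PVALB.2. Which limbs lowered r for these genes was not tested.

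**Figure D3:**
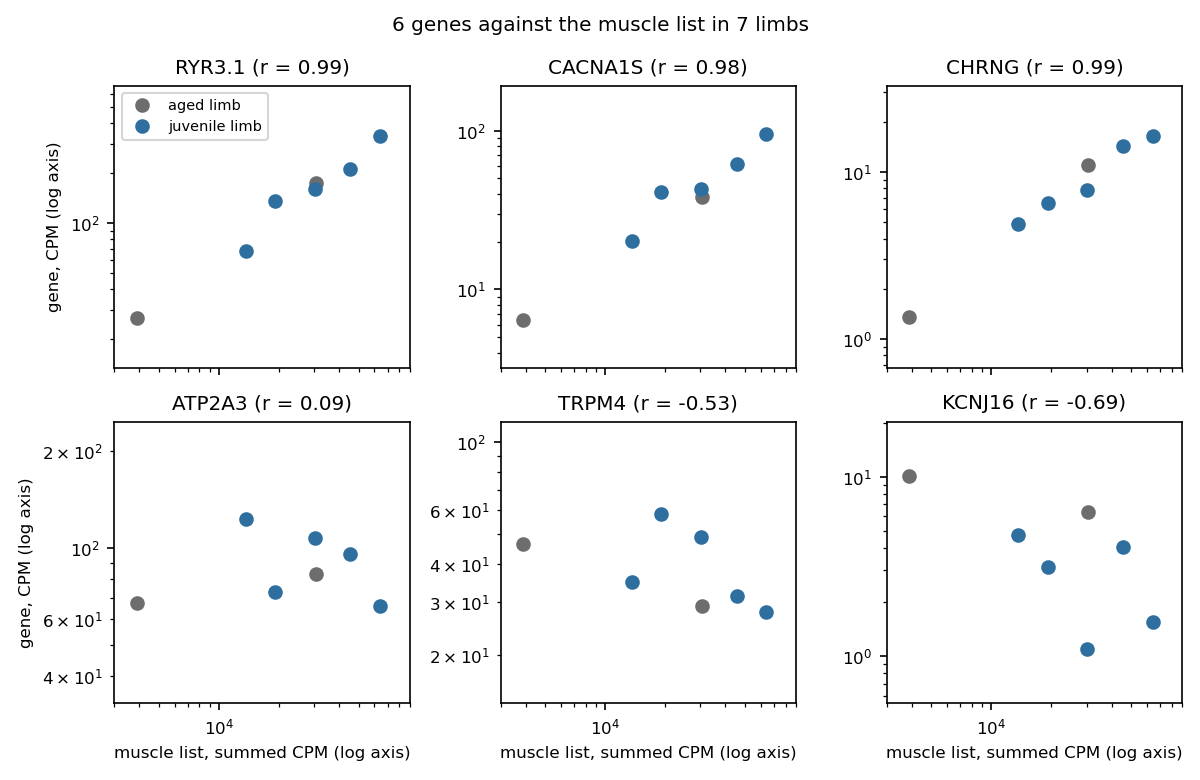
Level of 6 genes in CPM (vertical, log axis) against the summed CPM of 43 muscle list genes (horizontal, log axis) in 2 aged and 5 juvenile limbs, 1 point per limb. RYR3.1, CACNA1S and CHRNG climb with the list, while ATP2A3, TRPM4 and KCNJ16 do not.

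Some potassium and cation channels ran the other way, with KCNJ16 at an r of -0.69 (rho -0.50, permutation p = 0.0812, adjusted p = 0.503), TRPM4 at -0.53 (rho -0.68, permutation p = 0.227, adjusted p = 0.662) and KCNN4 at -0.45 (rho -0.32, permutation p = 0.310, adjusted p = 0.716). These 3 were the genes with an r below 0, where 47.5% of all genes were. ATP2A3 had an r of 0.09, SCNN1B of 0.19 and ATP13A4.6 of 0.02. SCNN1G, with an r of 0.71, and CAMK2B, with 0.86, lay higher, and r for CAMK2B was 0.34 without the 2 outer limbs. Of these genes, KCNN4, TRPM4, ATP2A3, SCNN1B, SCNN1G and CAMK2B were detected in all 5 blastemas, and ATP13A4.6 had 6 counts over the blastemas. KCNJ16 was not detected in all of them. JPH1, JPH1.1 and TMEM38A were, although their r was 0.91, 0.92 and 0.97, so such detection did not go with a weak relation throughout.

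**Figure D4:**
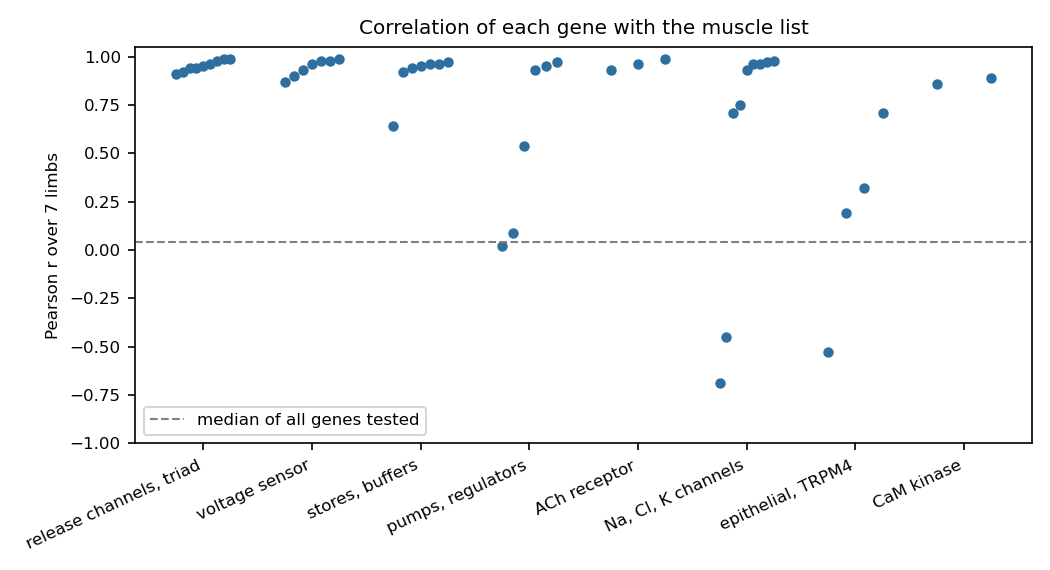
Pearson r of log2(CPM + 0.5) of each gene with the log2 summed level of 43 muscle list genes over 7 limbs, 1 point per gene, grouped by role. The dashed line is the median of all genes tested, 0.04, and the 9 release channel and junction genes lie between 0.91 and 0.99.

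Levels were also divided by the summed CPM of the muscle list in the same limb, a step chosen after the data were seen. Per 1000 muscle list CPM, the ratio of the highest to the lowest juvenile limb became smaller for 37 of the 47 genes, against 13.9% of the 22172 genes with a count in every juvenile limb. For TRDN it was 1.28 in place of 5.14, and for STAC3 1.98 in place of 7.92. For TRPM4 it was 7.04 in place of 2.1, and for ATP2A3 8.79 in place of 1.86, so these 2 genes did not follow the list.

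On this scale both aged limbs were spread below, within and above the juvenile limbs. Aged limb 1 was below every juvenile limb for 16 genes, against 5 in CPM, within for 26 and above for 5, and aged limb 2 was below for 16, within for 16 and above for 15. Here too, the placings of a single aged limb were not counted over all genes. Both aged limbs were below every juvenile limb for RYR3, TRDN, CACNA1S.1, CACNB1.1, CACNG6, CASQ1, PVALB.3 and KCNB2.1, which are 8 of 47 where 1.54% of all genes were, and both were above for CHRNB1 alone, where 4.31% were. Fitted with libraries scaled to the list, the median log2 fold change was 1.74 over all genes and -0.10 over the 47. The shares over all genes carry that shift, so the difference from 1.54% and 4.31% is not read as a result. Of the 8, TRDN, CACNG6 and PVALB.3 were below in both aged limbs in CPM as well, whereas for RYR3, CACNA1S.1, CACNB1.1, CASQ1 and KCNB2.1 aged limb 1 had lain within the juvenile limbs. TRDN was at 0.677 and 0.496 CPM per 1000 muscle list CPM in aged limbs, against 1.71, 2.01, 1.99, 2.00 and 2.19 in juvenile limbs. RYR3 was at 2.84 and 1.92 per 1000 in aged limbs, against 4.12, 5.01, 3.97, 6.3 and 4.23 in juvenile limbs, while RYR3.1, at 5.71 and 6.91, lay within the juvenile limbs at between 4.68 and 7.12. CASQ1 was at 7.16 and 3.85 per 1000 in aged limbs, against 8.6, 14.9, 13.7, 13.5 and 14.1 in juvenile limbs. The 8 genes were picked out by their values, and CACNA1S.1, CACNB1.1 and KCNB2.1 share their names with genes that were not low in both. In aged limb 2, CACNB1.1, CACNG6 and PVALB.3 had no count and KCNB2.1 had 1. RYR1, with 3 counts in that limb, stood at 0.0496 per 1000. That level lies above the lowest juvenile value of CACNB1.1 (0.017), CACNG6 (0.029), PVALB.3 (0.0213) and KCNB2.1 (0.0475). The place of these genes in aged limb 2 is therefore not settled.

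Fitted with libraries scaled to the muscle list, none of the 47 genes was called, where 0.156% of all genes were called lower and 1.33% higher. This scaling moved the median log2 fold change of all genes to 1.74, and the median of the 47 genes was then -0.10. PVALB.3 was at -5.34 (adjusted p = 0.157 by edgeR), TRDN at -1.75 (adjusted p = 0.278) and KCNJ16 at 3.41 (adjusted p = 0.0638). TRPM4, SCNN1G and KCNN4 stood at 1.94, 1.51 and 1.95, close to the median of all genes under this scaling.

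**Figure D5:**
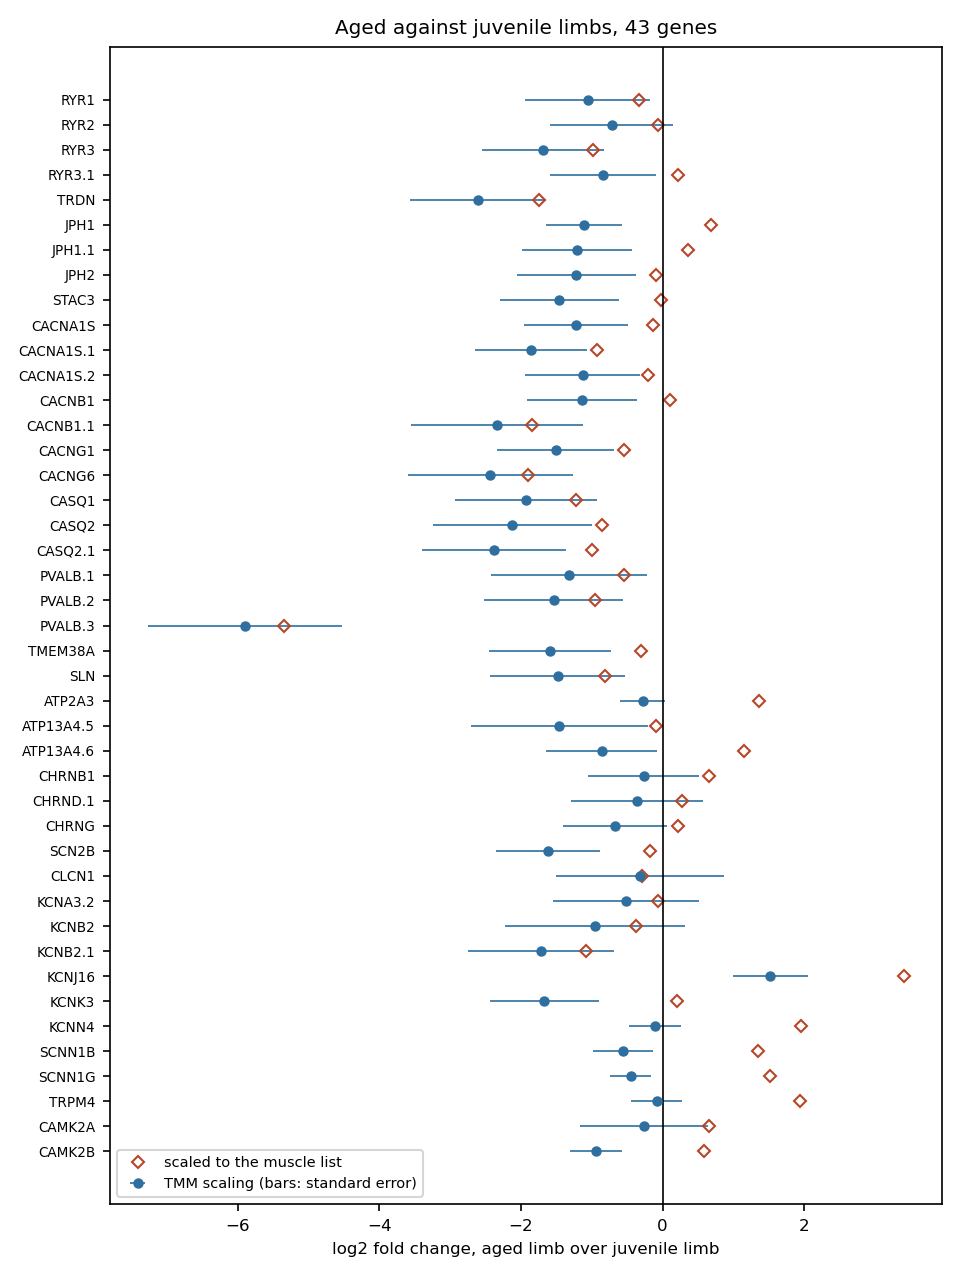
Log2 fold change of aged over juvenile limbs for 43 of the 47 genes. Filled points with standard errors are the edgeR fit with TMM scaling, and open diamonds are the fit scaled to the 43 muscle list genes, whose median over all genes is 1.74. Under TMM scaling PVALB.3 is lowest at -5.90 and KCNJ16 alone lies above zero.

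Blastemas were also set against aged limbs, and this too is a description, since the blastemas took part in choosing the genes. In 36 genes every blastema lay below both aged limbs, where 12.3% of all genes tested did so. Of 30 genes that passed the filter, 9 were called lower and 0 higher, where 1.15% of 22076 genes were called lower and 0.439% higher. The 9 were RYR3, RYR3.1, JPH2, CACNA1S, CACNA1S.1, CASQ1, PVALB.1, PVALB.2 and SLN. The count was 4 without aged limb 1 and 14 without aged limb 2, where 0.245% and 1.01% of all genes tested were called lower, and it was 5 without blastema 3, blastema 5 or blastema 6, where between 0.569% and 0.717% were. The fitted log2 fold changes of blastemas over aged limbs ran from -11.56 for SLN to -0.71 for SCNN1B, with a median of -6.61 over the 30 genes. With groups at 0 set to 3 counts, the median log2 ratio of summed counts was -6.76 over the 30 genes and -5.86 over all 47. Aged limb 2 lay below the highest blastema for JPH1.1, TMEM38A, CAMK2B and ATP13A4.5, and it had no count for CACNB1.1, CACNG6, PVALB.3, CLCN1 and KCNB2. For SCNN1B it was aged limb 1, at 5.42 CPM, that lay below blastema 5, at 5.67 CPM.

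Other genes of the same pathways were taken from the tables of the study, first from its list of genes changed in blastemas. From the list of 1114 came 21 further genes, among them the calcium pump regulator PLN and the tubule gene CAV3. Of these, 17 passed the filter against juvenile limbs. In blastemas 11 were called lower and 2 higher, where 5.60% of all genes tested were called lower and 1.86% higher. The median log2 fold change of the 17 was -2.85. CAV3 was at -9.81 ± 0.89 (SE) and PLN at -2.24 ± 0.35 (SE), whereas SELENON and CALU, proteins of the endoplasmic and sarcoplasmic reticulum, were called higher at 1.51 ± 0.40 (SE) and 1.47 ± 0.35 (SE). These too had been listed for this contrast. In aged limbs 0 of the 21 were called, where 0.0494% of all genes were called lower and 0.0535% higher. The median of the 21 there was -0.83.

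A further 13 channel and calcium genes came from the first rows of the study's module table, which is not restricted to genes changed in blastemas. Of these, 10 were tested against juvenile limbs and 1 was called, CAMKK2, a kinase upstream of other calmodulin-dependent kinases, at -2.94 ± 0.76 (SE, adjusted p = 0.0318 by edgeR). Over all genes tested 5.60% were called lower and 1.86% higher, so 1 of 10 is not read as a result. The median log2 fold change of the 10 was -0.44. ATP2A2, the calcium pump of slow muscle, heart and many other cells, was at -0.77 ± 0.23 (SE, adjusted p = 0.0615 by edgeR), the plasma membrane calcium channel ORAI1 at -0.94 ± 0.34 (SE, adjusted p = 0.110) and the mitochondrial exchanger SLC8B1 at 0.43 ± 0.22 (SE, adjusted p = 0.272). In aged limbs 12 were tested and 0 called, where 0.0494% of all genes were called lower and 0.0535% higher. The median log2 fold change of the 12 was -0.01. Whether these 13 and the 47 genes differ beyond how they were listed was not tested.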

How the data were processed

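The data are RNA sequencing of 12 axolotl libraries. After depletion of ribosomal RNA, stranded libraries were read from both ends. The authors aligned to the AmexG_v6.0-DD assembly with STAR 2.7.9a, used featureCounts with the AmexT_v47 annotation, and deposited whole-number counts per gene without normalization. Settings for strand and for reads with several matches are not given in the sources used here, so identifiers with the same name, overlapping genes and copies are uncertain.

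Groups followed the sample labels. Each pair of groups was fitted on its own libraries with edgeR 4.0.16 (R 4.3.3), by its quasi-likelihood F test after TMM scaling and filterByExpr, and p was adjusted (Benjamini-Hochberg) within that fit. Calls needed an adjusted p under 0.05 together with a log2 fold change beyond 1 in either direction, as in the study, which itself used DESeq2. Folds from counts use counts summed over a group, with 95% exact intervals at 1 to 3 counts. Correlations used log2(CPM + 0.5). Alternatives were DESeq2 1.42.0, its size factors, no filter, all 12 libraries, the adjusted p alone, the replicate number as a block and each library left out. P-values of the fits set a group difference against the spread between libraries, and those of the correlations come from permuting the limbs. The main fit of blastemas against juvenile limbs has no term for animals that both groups may share.

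The 47 genes, the role lists and the marker lists were chosen with earlier results of these data known. The genes given per library were set by a rule that lists 30 of the 47 and the 2 highest and 2 lowest changes in aged limbs. For 4 of the 47, 3 of them on that list, single results are not reported here, and these genes enter the counts and medians only. Of the 36 names, 30 were found in RefSeq (UKY_AmexF1_1), and 0 of the identifiers. No sequences of these genes were used here.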

Additional observations from a re-analysis of the deposited data

Results flagged for a closer look

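In groups of 5 libraries, 48 sets of values were examined for a single library far from the rest, and 9 stood out. Chance gives about 1 in 20 for independent sets of normally distributed values. Many sets here hold few or no counts and several share a library, so no excess over chance is read from the 9. The measure is the gap of the extreme library to its nearest neighbour as a share of the range of the group, with a critical value of 0.71 for 5 samples. Among the blastemas, replicate 8 stood apart for CAMK2A at 1.0 (0.520 CPM against 0 in the next), JPH2 at 0.907 (0.817 against 0.0757 CPM), PVALB.3 at 0.845 (0.297 against 0.0460 CPM) and RYR3 at 0.742 (0.892 against 0.230 CPM). The summed muscle list stood apart in the same library at 0.881 (104 against 17.1 CPM). Blastema 2 stood apart for TMEM38A at 0.757 (6.55 against 2.05 CPM) and for TRDN at 0.715 (0.783 against 0.223 CPM). Among the juvenile limbs, replicate 8 stood apart for RYR1 at 0.776 (5.53 against 2.17 CPM) and for PVALB.3 at 0.753 (4.95 against 1.71 CPM). The cause was not tested.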

How the results depend on the processing

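Against juvenile limbs, between 35 and 46 of the 47 genes were called lower in blastemas under the alternatives, 46 with DESeq2 or without a filter (6.46% and 3.59% of all genes), 44 with all 12 libraries (5.78%) and 36 with the replicate number as a block (5.48%), against 37 without the block. Same-numbered libraries correlated in their deviations from the group means at a median of 0.144 (0 to 0.214 over 5 pairs), 3 of 5 blastemas and 3 of 5 limbs were closest to their own number, and the numbers are not stated to mark animals. Leaving out 1 library gave 35 to 40, where between 4.10% and 6.75% of all genes were called lower. Between 39 and 42 of the 47 passed the filter in these fits, so the range also reflects the filter. Single calls were lost for ATP2A3 without blastema 2 (-0.95), TRPM4 without juvenile limb 6 (-0.92) and KCNN4 without juvenile limb 2 or 5 (-1.41 each), and SCNN1B was gained with DESeq2 (-1.33) and without a filter (-1.25), as was KCNJ16 without a filter (-1.90). In aged limbs the count of 0 became 2 with DESeq2 and 10 without a filter. It was also 0 with any library left out, but over all genes these fits called only 4 or 5 without a juvenile limb, 0 without aged limb 1 and 9 without aged limb 2, where the lone aged limb is assumed to vary like the juvenile limbs, so they say nothing of stability. TRPM4 changed sign in aged limbs, with a range of -0.43 to 0.23 over the left-out libraries. Between blastemas and aged limbs the count of 9 became 30 without a filter (2.25% of all genes) and 30 with all 12 libraries (3.11%), and ran from 4 to 14 with 1 library left out. The count of 0 genes correlated with the muscle list became 3 with the mean log2 level. Over all genes, 1488 were called between blastemas and juvenile limbs, 2648 with DESeq2 and 3260 without a filter, 25 between aged and juvenile limbs, 305 with DESeq2, 897 without a filter and 362 scaled to the muscle list, and 351 between blastemas and aged limbs, 1081 with DESeq2, 1867 without a filter and 1008 with all 12 libraries. The cause of these shifts was not tested. No paired analysis was possible where aged limbs enter, since they came from other animals than the juvenile groups. The replicate number 2 that they have in common marks no pair. Depth limits the genes at 0 in blastemas, whose level is known only as below 3 counts over the group.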
